A study of Mus musculus with 16 samples.

Results

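The 8 genes described here, of 32285 in the count tables, were grouped as complement and lipid genes of macrophages. C1qa, C1qb, C1qc, C3, and Cfb belong to the complement system. Apoe, Trem2, and Ms4a7 are linked to lipid handling and to lipid-laden macrophages. All 8 were chosen by name, at a time when earlier results of these data were known. Their levels were read in cell classes of CD45+ (leukocyte) cells from mouse kidney allografts undergoing rejection and from the spleen of naive mice, and then in cells that the authors had called CD8+ T cells. The study asked how leukocytes, CD8+ T cells above all, differ between kidney allografts that are accepted and kidney allografts that are rejected. Accepting mice were B6 (C57BL/6J) recipients of a DBA/2J kidney and rejecting mice were DBA/2J recipients of a B6 kidney, all male, as the methods describe. The labels give the strain C57BL/6J and the genotype WT for all samples and name no treatment. Grafts and recipient spleens were taken at 1, 3, and 24 weeks after transplantation in accepting mice and at 1 week in rejecting mice. Viable CD45+ cells were sorted, so leukocytes of donor and recipient were profiled together and were not told apart here.

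Complement is a cascade of plasma and tissue proteins that tags and lyses targets. C1q, assembled from A, B, and C chains, opens the classical pathway when it binds antibody or dying cells, C3 is the component on which all pathways converge, and factor B (Cfb) forms the convertase of the alternative pathway. Apolipoprotein E carries cholesterol between cells, TREM2 is a surface receptor that binds lipids and apolipoproteins, and MS4A7 is a membrane-spanning protein of macrophages, so these genes serve as markers of macrophages that clear debris and lipid.

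In GRCm38, C1qa (chr4:136895917-136898803), C1qc (chr4:136889804-136893065), and C1qb (chr4:136880129-136886187) lie next to each other on the minus strand of chromosome 4. Apoe is at chr7:19696109-19699188 on the minus strand, and Ms4a7 is at chr19:11321039-11336146 on the minus strand. C3 (chr17:57203970-57228136, minus strand), Cfb (chr17:34856374-34862518, minus strand), and Trem2 (chr17:48346401-48354147, plus strand) lie apart from each other on chromosome 17. These are the spans of the whole genes. RefSeq promoters of the GRCm38.p6 build were held for 6 of the 8 genes (C1qb, C1qc, C3, Apoe, Trem2, and Ms4a7). Both strands of the 250 bases before each start were searched for 5 motifs. The core of the myeloid factor PU.1, GAGGAA, was found for 4 of the 6 genes (C1qb, C1qc, Apoe, and Trem2), and 23.3% of 32851 mouse promoters of this length held it. The TATA box, TATAAA, was found for Apoe alone among them, and 12.4% of promoters held it. Its matches lie in a window (chr7:19698622-19698871) inside the gene span, and the window just before the span (chr7:19699189-19699438) had none. The interferon-stimulated response element core (2.98% of promoters), the STAT site TTCNNNGAA (7.02%), and the AP-1 site TGACTCA (4.46%) were found for none of the 6, which says only that these letters were not in the windows. The 250 bases before the start are shown for a C1q chain, C3, and Trem2, to set a complement gene with a PU.1 match near its start beside one with no match and beside the lipid receptor gene, with the matched letters in capitals. The match of C1qb lies 30 to 25 bases before the start, that of Trem2 lies 40 to 35 bases before it in the reverse direction, and the C3 window has no match.
C1qb (chr4:136886201-136886450, minus strand): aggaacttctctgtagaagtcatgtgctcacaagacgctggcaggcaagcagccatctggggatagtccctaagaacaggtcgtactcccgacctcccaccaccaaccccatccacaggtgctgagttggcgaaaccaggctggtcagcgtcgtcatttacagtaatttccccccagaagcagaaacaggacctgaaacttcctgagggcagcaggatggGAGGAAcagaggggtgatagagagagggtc
C3 (chr17:57228137-57228386, minus strand): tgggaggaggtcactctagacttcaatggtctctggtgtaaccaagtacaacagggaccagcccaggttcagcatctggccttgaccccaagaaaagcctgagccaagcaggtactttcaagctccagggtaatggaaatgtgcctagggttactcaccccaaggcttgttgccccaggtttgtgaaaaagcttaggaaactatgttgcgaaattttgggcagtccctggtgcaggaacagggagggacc
Trem2 (chr17:48346151-48346400, plus strand): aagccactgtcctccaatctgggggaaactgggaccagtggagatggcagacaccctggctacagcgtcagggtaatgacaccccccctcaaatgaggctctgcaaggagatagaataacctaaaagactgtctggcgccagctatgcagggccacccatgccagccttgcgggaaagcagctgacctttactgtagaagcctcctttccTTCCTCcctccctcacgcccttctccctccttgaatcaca

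The CD45+ matrix of rejecting kidneys held 11948 cells in 2 libraries, numbered 2 and 3 by their tags, and that of naive spleen held 47060 cells in 5 libraries, numbered 1 to 5. Values are unique molecular identifier (UMI) counts, in which each captured mRNA molecule is counted once, and totals ran from 13437087 to 19552578 UMIs per kidney library and from 30054753 to 37016197 per spleen library. Each cell was put in the class of whichever of Ly6c2, Arg1, Ace, Spic, Flt3, and Cd79a gave it the most UMIs, with at least 2 UMIs. The myeloid classes also needed an Fcer1g UMI and no UMI of a T or NK cell gene. Rejecting kidneys gave 2717 Ly6c2 (inflammatory monocyte), 103 Arg1 (arginase-positive macrophage), 39 Ace (nonclassical monocyte), 57 Spic, 13 Flt3 (dendritic cell), and 44 Cd79a (B cell) cells. Naive spleens gave 497 Ly6c2, 115 Ace, 85 Spic (red pulp macrophage), 61 Flt3, and 29932 Cd79a cells and no Arg1 cell. A further 3911 kidney cells that passed the same gate fell in no class.

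The class names were set against markers. In spleen, Spic cells summed 10648 to 21490.4 CPM (counts in 1000000 UMIs of the sum) over 8 red pulp macrophage genes. Spic itself is among the 8, so part of this sum is set by the class rule. In kidney library 2 the Spic class summed 3036 CPM over these genes with Cd163 at 0, so this class is called by its gene only, and 56 of its 57 cells came from library 2. Spleen Ly6c2 sums also held neutrophil genes, at 117549, 69.6, 68392, 5067, and 7319.6 CPM over 5 genes in libraries 1 to 5 against 792 and 617 CPM in the kidney. Their part in the results was not tested, and values without cells holding a Camp, Ngp, or Ltf UMI (genes of neutrophil precursors) are given beside the comparisons with Ly6c2 cells of spleen. That choice left 136 of 213, 41 of 41, 120 of 151, 48 of 49, and 43 of 43 Ly6c2 cells in libraries 1 to 5. It thus does not remove all RNA of neutrophil genes, since library 5 kept its 7319.6 CPM. The kidney Cd79a class summed 1356 and 1903 CPM over 7 T cell genes. Of the kidney cells 26, and of the spleen cells 477, shared their 16 barcode bases with a cell of another library. Levels are CPM of all UMIs of a class in a library. They were compared between classes of the same tissue by edgeR with the library as a block, on sums of at least 20 cells. The numbers of replicates are therefore numbers of libraries, each taken as 1 mouse.

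**Figure D1:**
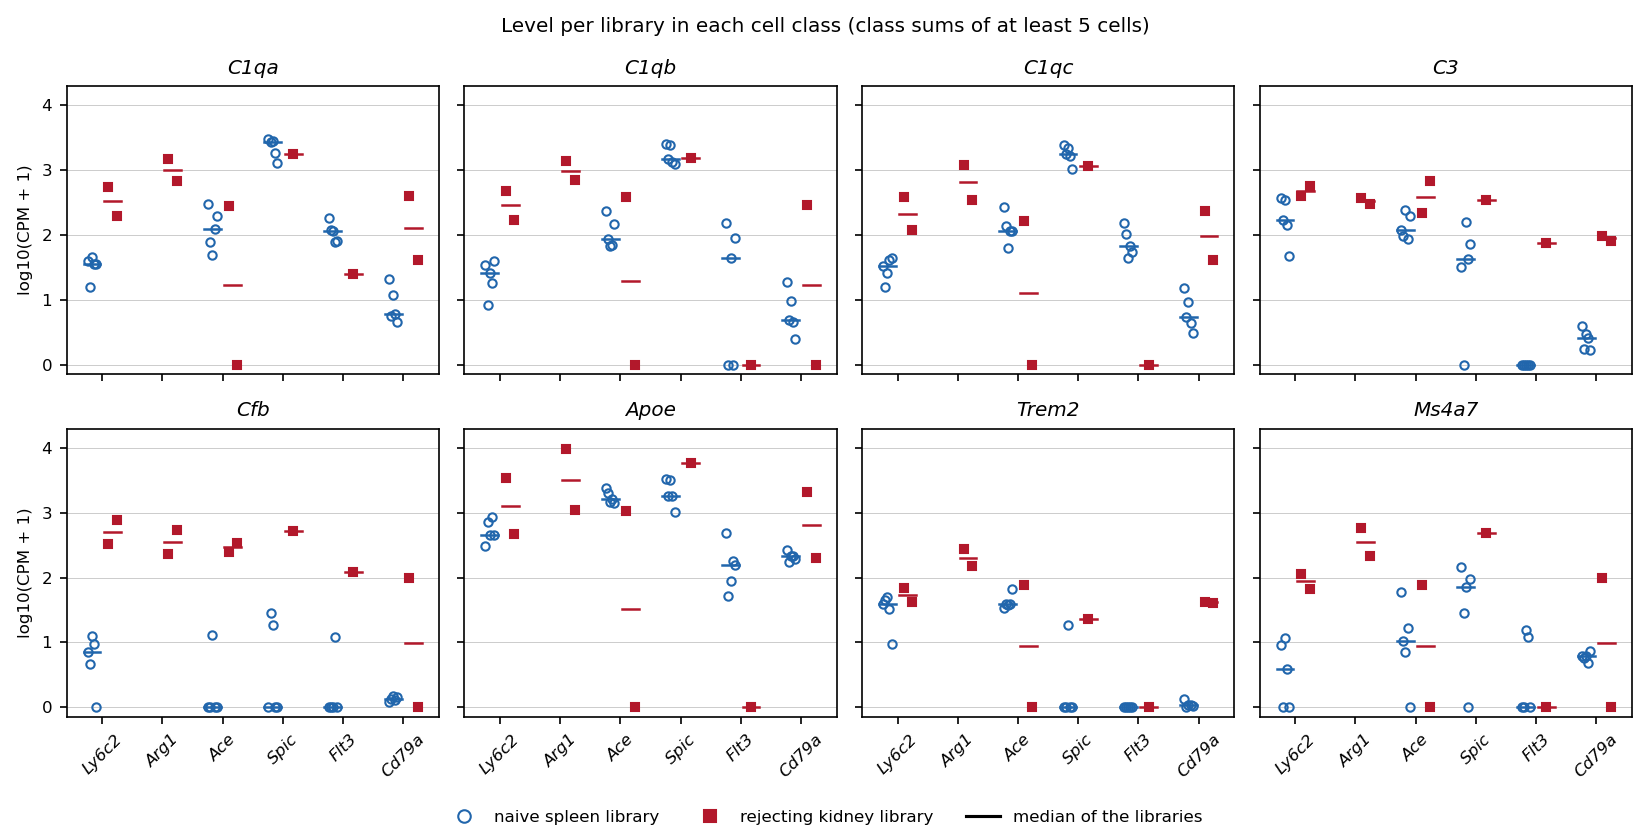
Level of each of the 8 genes (1 panel each) as log10 of CPM plus 1, by cell class, with open circles for naive spleen libraries, filled squares for rejecting kidney libraries, class sums of at least 5 cells, and a bar at the median of the libraries. C1q chains sit highest in the spleen Spic class and in the kidney Spic and Arg1 classes, whereas Cfb sits high in every kidney myeloid class and at or near 0 in most spleen sums.

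C1qa, the A chain of C1q, was highest in Spic cells of naive spleen. It measured 3003, 2700.2, 2857, 1861, and 1307 CPM there in libraries 1 to 5, from 9 to 41 cells each. Ly6c2 cells of the same libraries held 38.9, 14.7, 44.1, 34.1, and 34.3 CPM. All 5 Spic values lay above all 5 Ly6c2 values with no overlap. Ace cells held 300.3, 77.0, 48.9, 123, and 199 CPM and Flt3 cells held 180.5, 118, 115, 77.6, and 81.3 CPM. These intermediate classes overlapped each other, and both lay above Ly6c2 cells in every library. B cells of the Cd79a class, which should lack C1q, held 19.99, 4.52, 10.9, 5.03, and 3.56 CPM and overlapped with Ly6c2 cells. Library 1, which had 41 of the 85 Spic cells, was the highest in Cd79a cells also.

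The C1qb and C1qc chains followed the same order at the extremes. In Spic cells C1qb measured 2540.3, 1503, 2436, 1323, and 1259.7 CPM and C1qc 2471, 1809, 2226, 1675, and 1046 CPM. In Ly6c2 cells C1qb measured 33.4, 7.33, 24.96, 17.1, and 38.6 CPM and C1qc 32.1, 14.7, 24.96, 39.8, and 42.9 CPM. For both chains the classes stood apart in every library. Over spleen Spic cells the UMIs of the 3 chains split into 38.3% C1qa, 31.0% C1qb, and 30.8% C1qc, and in kidney Arg1 cells they split into 37.5% C1qa, 36.2% C1qb, and 26.3% C1qc. The A chain had the largest share in Spic cells of all 5 spleen libraries and in Arg1 cells of kidney library 2, but in Arg1 cells of kidney library 3 C1qb had 40.8% and C1qa 39.2%. The smallest share was that of C1qc in both kidney libraries and in 3 spleen libraries, and that of C1qb in spleen libraries 2 and 4. Only the 3′ end of each molecule is counted, so these counts do not scale with transcript length.

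Only library 1 had 20 Spic cells, so its sum was compared with the 5 Ly6c2 sums, and 6 residual degrees of freedom came from the other classes. The edgeR test called C1qa (log2 difference 5.52 ± 0.48 SE, adjusted p = 1.4e-06), which is 45.9-fold. It called C1qb at 51.4-fold (edgeR adjusted p = 1.46e-06) and C1qc at 46.8-fold (edgeR adjusted p = 4.63e-06). In all, 6 of the 7 genes tested were called, 5 higher and 1 lower, where 9.45% of the 9878 genes tested were called (higher in 5.74% and lower in 3.71%). Sums of at least 5 cells, chosen after seeing the data, let all 5 Spic sums enter. Then C1qa differed by 6.20 (edgeR adjusted p = 1.71e-13), C1qb by 6.44, and C1qc by 6.09 on the log2 scale, where 40.7% of genes were called. Without Ly6c2 cells that held a Camp, Ngp, or Ltf UMI the value of the library 1 sum was 5.32 for C1qa, 5.48 for C1qb, 5.26 for C1qc, and -3.34 for C3, all still called.

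Ace cells, the nonclassical monocytes, held more C1q than Ly6c2 cells in spleen, by less. The log2 difference was 1.81 for C1qa (edgeR adjusted p = 0.0157), 2.04 for C1qb (0.0155), and 2.05 for C1qc (0.0175), from 3 Ace sums. With Apoe, 4 of 7 genes tested were called higher and none lower, where 7.58% of genes were called (higher in 5.38% and lower in 2.21%). The calls of the 3 C1q genes were lost without library 1, the highest Ace library, and without the block. Without library 1 the adjusted p ran from 0.303 to 0.331. C1qb also lost its call without library 3 or 4 (adjusted p = 0.0689 and 0.0694) and C1qa without library 4 (0.0778), and with classes from at least 3 UMIs none of the chains was called (adjusted p from 0.229 to 0.334). On sums of at least 5 cells, 5 against 5, they stayed called, C1qa at 2.07 (edgeR adjusted p = 0.000325) on the log2 scale, where 26.8% of genes were called. Flt3 cells had sums of at least 5 cells only, and against Ly6c2 cells C1qa was called at 1.82 (edgeR adjusted p = 0.00517) and C1qc at 1.58 (0.0264). C1qb at 1.39 (0.156) was not, where 24.5% of genes were called. C1qc lost its call without library 1 (0.117) or library 2 (0.116), and neither C1qa (0.483) nor C1qc (0.783) was called on 2 Flt3 sums of at least 20 cells with classes from at least 1 UMI, where both limits differ. Without Ly6c2 cells that held a Camp, Ngp, or Ltf UMI the Ace values were 1.64 for C1qa, 1.88 for C1qb, and 1.84 for C1qc, and the Flt3 values 1.67 for C1qa and 1.39 for C1qc, all still called.

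In rejecting kidneys the C1q chains were higher in Arg1 cells than in Ly6c2 cells. Arg1 cells held 1499 and 682 CPM of C1qa in libraries 2 and 3, and Ly6c2 cells held 545 and 198 CPM. C1qb measured 1373 and 710.3 CPM against 477 and 172 CPM. C1qc measured 1222 and 348 CPM against 382 and 118 CPM. In each class library 2 was higher than library 3, and within each library Arg1 cells were the higher class. With the library as a block the fold was 3.06 for C1qa (edgeR adjusted p = 3.79e-11), 3.43 for C1qb (9.96e-12), and 3.09 for C1qc (1.14e-09). Together 6 of the 8 genes were called higher and none lower, where 5.05% of the 5782 genes tested were called (higher in 2.44% and lower in 2.61%). This comparison has 1 residual degree of freedom, and without the block none of the 8 genes was called.

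The 56 Spic cells of kidney library 2 held 1786 CPM of C1qa, the most of any class in that library. Unclassed cells of the myeloid gate held 1312 and 866 CPM in libraries 2 and 3, a range that overlapped that of Arg1 cells and lay above that of Ly6c2 cells. Ace cells held 280.5 and 0 CPM, the second value from 6 cells. Between Ace and Ly6c2 cells a lone Ace sum (library 2, 33 cells, 15 C1qc UMIs) was set against 2 sums, with 1 residual degree of freedom that came from the Ly6c2 and Arg1 sums, so the Ace sum is assumed to vary like those. C1qc was called lower (log2 difference -1.26, edgeR adjusted p = 0.0436), and so was Apoe, where 2.99% of genes were called (higher in 1.99% and lower in 1.0%). C1qa at -0.89 (0.1) and C1qb at -0.19 (0.839) were not called. Neither call held without the library block, and both held on sums of at least 5 cells, 2 against 2 (C1qc -1.33, edgeR adjusted p = 0.0389). The kidney Flt3 class, 4 and 9 cells, held 0 and 24.4 CPM of C1qa, from 0 and 1 UMI, and no test is given for it. The kidney Cd79a class held 401 and 39.6 CPM of C1qa, from 29 UMIs and 1 UMI, which is near the level of Ly6c2 cells in library 2.

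Shares of cells with a UMI were counted after each cell was thinned to 1000 UMIs, with exact 95% intervals that cover counting error only. In spleen 86.8% (77.1 to 93.5) of Spic cells had a C1qa UMI, against 11.3% (6.16 to 18.6) of Ace, 9.84% (3.70 to 20.2) of Flt3, 2.62% (1.403 to 4.44) of Ly6c2, and 0.382% (0.315 to 0.459) of Cd79a cells. The median depths before thinning were 3788 UMIs in Spic and 2777 in Cd79a cells. In the kidney 38.8% (29.4 to 48.9) of Arg1 cells and 9.31% (8.24 to 10.5) of Ly6c2 cells had one, against 9.09% (2.53 to 21.7) of the 44 Cd79a cells. The median depths were 3312, 2590, and 1675 UMIs. These shares are pooled over libraries that the classes draw on unequally, since 2285 of the 2717 Ly6c2 cells came from library 3 and 32 of the 44 Cd79a cells from library 2. Within each library Ly6c2 cells held the higher C1qa level, at 545 against 401 CPM in library 2 and 198 against 39.6 CPM in library 3. A UMI of any C1q chain was absent from 73.1% of Ly6c2 and 81.2% of Cd79a cells in library 2, and from 88.9% and 83.3% in library 3, so the order of the shares changed between libraries. The part of free RNA in the Ly6c2 level was not tested.

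C3, the shared component of the pathways, had another distribution. In naive spleen Ly6c2 cells held 375, 172, 341, 142, and 47.1 CPM and Spic cells held 31.3, 0, 158, 41.4, and 71.3 CPM. The ranges overlapped, and Ly6c2 cells were the higher class in 4 of 5 libraries. Flt3 cells held no C3 UMI in 61 cells, which puts them at least 22.2-fold lower than Ly6c2 cells on a floor of 3 counts over the group, with the Ly6c2 level of each library weighted by the UMIs of its Flt3 cells. C3 fell in the library 1 Spic sum relative to Ly6c2 sums (log2 difference -3.47 ± 0.62 SE, adjusted p = 0.00164 by edgeR). On sums of at least 5 cells it fell by 2.12 on the log2 scale (edgeR adjusted p = 0.00155), and without library 1 the value was -1.30 (adjusted p = 0.0713). Without the library block the library 1 value was -2.94 (adjusted p = 0.198), and with the 6 class genes alone it was -2.17 (0.074). In Ace cells C3 measured 117, 96.2, 238, 84.8, and 199 CPM and did not pass (-0.93, adjusted p = 0.0598), nor without Ly6c2 cells that held a Camp, Ngp, or Ltf UMI (-0.80, 0.089). Cells with a C3 UMI made up 24.4% (20.7 to 28.4) of spleen Ly6c2 and 2.63% (0.320 to 9.18) of Spic cells.

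In the kidney C3 was spread over the classes. Ly6c2 cells held 394 and 562 CPM in libraries 2 and 3, Arg1 cells 372 and 301 CPM, and unclassed cells 398 and 552 CPM. Arg1 cells were the lowest of these in both libraries, but the difference from Ly6c2 cells did not pass (log2 -0.52, edgeR adjusted p = 0.143). Cells with a C3 UMI made up 37.0% (35.2 to 38.9) of Ly6c2 and 9.09% (2.53 to 21.7) of Cd79a cells.

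Cfb, the alternative pathway factor, was high in myeloid cells of the kidney and low in those of spleen. In the kidney it measured 327 and 785 CPM in Ly6c2 cells, 227 and 541 CPM in Arg1 cells, and 308 and 625.1 CPM in unclassed cells. Here library 3 was the higher one in each class, the reverse of C1q. After thinning, cells with a Cfb UMI made up 44.7% (42.8 to 46.6) of Ly6c2 cells and 0 of 44 Cd79a cells, for which the exact upper limit is 8.04%. At full depth 69.2% of Ly6c2 cells and 5 of the 44 Cd79a cells had one, the latter with 7 UMIs in all. In spleen Ly6c2 cells held 6.14, 3.66, 11.6, 8.54, and 0 CPM, and the share with a UMI was 1.01% (0.328 to 2.34). Arg1 and Ly6c2 cells of the kidney differed in Cfb by -0.53 on the log2 scale, which did not pass (edgeR adjusted p = 0.0811).

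Apoe, the lipid carrier, differed between the kidney libraries by more than C1q did. Kidney Ly6c2 cells held 3487 and 469 CPM and Arg1 cells held 9549.9 and 1101 CPM. Library 2 was higher than library 3 in both classes, and Arg1 cells were the higher class in both libraries. Their blocked difference was 2.56-fold (log2 difference 1.36 ± 0.10 SE, adjusted p = 2.55e-13 by edgeR). Ace cells were lower than Ly6c2 cells, at 1068 and 0 CPM, the second value from 6 cells (log2 -1.76, edgeR adjusted p = 7.07e-10). The Cd79a class of the kidney held 2117 and 198 CPM, and 29.5% (16.8 to 45.2) of its cells had an Apoe UMI against 24.99% (23.4 to 26.7) of Ly6c2 cells. These shares, too, are pooled over libraries with unequal numbers of both classes, and within each library Ly6c2 cells held the higher Apoe level. The part of free RNA in it was not tested. Of Arg1 cells 53.4% (43.3 to 63.3) had an Apoe UMI.

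In naive spleen Apoe measured 3304, 1837, 3225, 1819.7, and 1046 CPM in Spic cells, 2435, 2011, 1460.0, 1642, and 1408 CPM in Ace cells, and 312, 718, 458, 868, and 454 CPM in Ly6c2 cells of libraries 1 to 5. Spic and Ace cells overlapped and both lay above Ly6c2 cells in every library. Flt3 cells held 489.9, 50.6, 86.3, 177, and 153 CPM. Against Ly6c2 cells Apoe rose 5.68-fold in the Spic sum (edgeR adjusted p = 0.00122) and 3.25-fold in Ace sums (edgeR adjusted p = 0.00123). In Flt3 sums of at least 5 cells it fell by 1.71 on the log2 scale (edgeR adjusted p = 0.000929). Without Ly6c2 cells that held a Camp, Ngp, or Ltf UMI the log2 values were 2.25, 1.48, and -1.85, all still called. B cells of the Cd79a class held 173 to 269 CPM. That was 12.8% of cells with an Apoe UMI against 0.382% with a C1qa UMI, and by their number Cd79a cells held 72.4% of the Apoe UMIs in the spleen matrix and 25.6% of the C1qa UMIs.

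Trem2, the lipid receptor, was highest in kidney Arg1 cells. It measured 271 and 151 CPM there against 68.2 and 40.4 CPM in Ly6c2 cells. Arg1 cells were higher in both libraries, by 3.84-fold under the block (edgeR adjusted p = 1.05e-06). DESeq2 did not call this gene (adjusted p = 0.873). The kidney Spic class, the richest in C1q in library 2, held 22.1 CPM of Trem2 in library 2, below the Ly6c2 level. In spleen Spic cells Trem2 was at 0, 0, 17.5, 0, and 0 CPM, 1 UMI in 85 cells, while Ly6c2 cells held 38.2, 44.0, 49.1, 31.3, and 8.57 CPM. The Spic sum of library 1, with no Trem2 UMI, did not pass against Ly6c2 sums (edgeR adjusted p = 0.0783), and it did without Ly6c2 cells that held a Camp, Ngp, or Ltf UMI (0.0279). Ace cells held 33.4, 38.5, 36.7, 38.5, and 66.3 CPM and did not differ by the test from Ly6c2 cells (-0.19, edgeR adjusted p = 0.892). The 61 Flt3 cells held none, at least 3.76-fold below Ly6c2 cells by the same weighting.

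Ms4a7, the membrane-spanning macrophage protein, measured 579.5 and 212 CPM in kidney Arg1 cells and 114 and 66.2 CPM in Ly6c2 cells. Arg1 cells were the higher class in both libraries, 4.07-fold under the block (edgeR adjusted p = 3.62e-09). The kidney Spic class held 482 CPM in library 2. In spleen, Spic cells held 144, 27.8, 70.1, 0, and 95.1 CPM and Ly6c2 cells 8.19, 0, 10.8, 2.85, and 0 CPM. Spic cells were the higher class in every library but library 4, where they had no UMI, and Ms4a7 rose in the Spic sum of library 1 by 4.14 on the log2 scale (edgeR adjusted p = 0.00349). On the 5 Spic sums of at least 5 cells Ms4a7 was not tested. In Ace cells the difference was 1.94 (edgeR adjusted p = 0.182) and did not pass. Without Ly6c2 cells that held a Camp, Ngp, or Ltf UMI the values were 3.62, still called, and 1.46 (0.318).

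**Figure D2:**
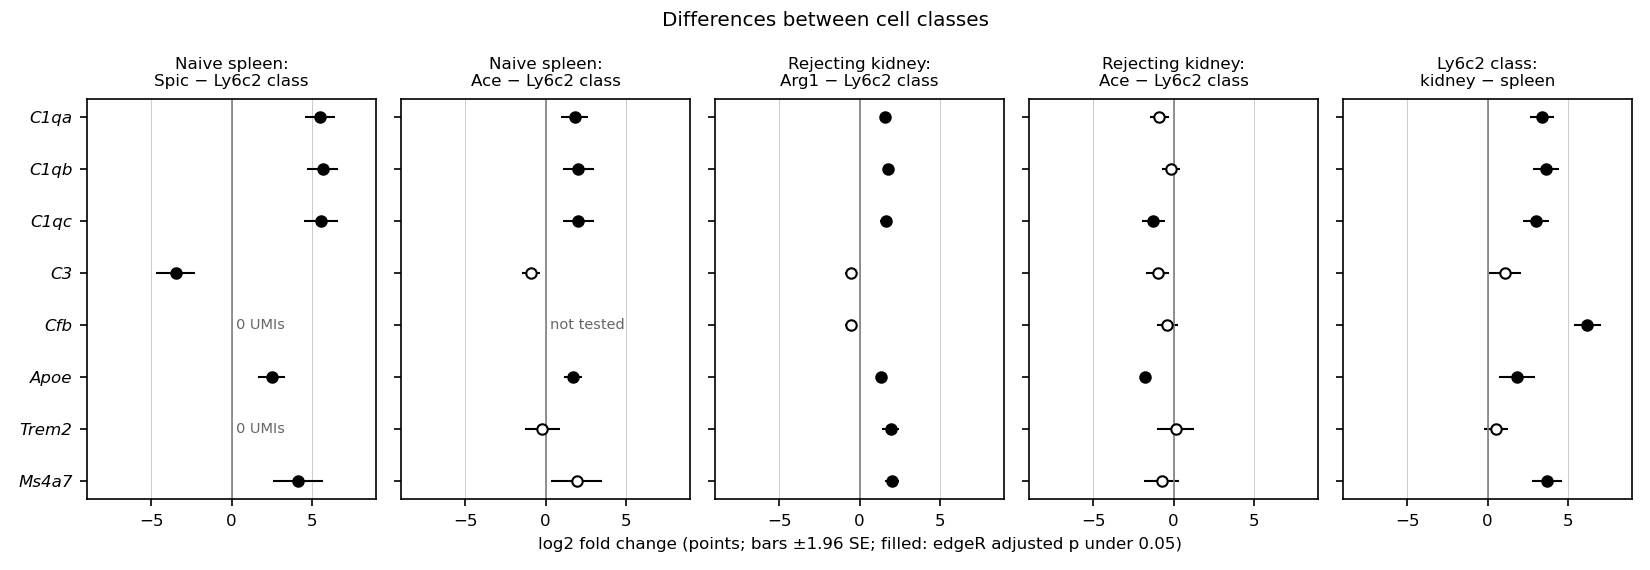
Log2 difference of each gene between cell classes within a tissue and between rejecting kidney and naive spleen, with bars for the normal 95% interval, filled points where the edgeR adjusted p was under 0.05, and words in place of a point where a sum had no UMI or the gene was not tested. The bars take no account of the few residual degrees of freedom. C1q chains are shifted up in the spleen Spic, kidney Arg1, and kidney-over-spleen comparisons, C3 is shifted down in the spleen Spic comparison, and Cfb has the largest kidney-over-spleen difference at 6.22.

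Ly6c2 cells were then compared between rejecting kidney (2 sums) and naive spleen (5 sums). Tissue, transplantation, and, by the methods, recipient strain differ together here and cannot be told apart. Cfb had the largest difference of the 8 genes, 327 and 785 CPM in the kidney libraries against 0 to 11.6 CPM in spleen with no overlap, 74.6-fold (log2 difference 6.22 ± 0.44 SE, adjusted p = 4.99e-06 by edgeR). Ms4a7 was 12.9-fold higher (edgeR adjusted p = 0.000197). C1qa was 10.4-fold (edgeR adjusted p = 7.44e-05), C1qb 12.6-fold (9.89e-05), and C1qc 8.14-fold higher (0.000314). The C1qa level of B cells was also higher in the kidney, at 401 and 39.6 CPM against 3.56 to 19.99 CPM in spleen, and its part in the difference was not tested. C3, at 1.09 (adjusted p = 0.122), and Trem2, at 0.52 (0.308), did not pass. In all 6 of 8 genes were higher and none lower, where 35.2% of the 9510 genes tested were called (higher in 21.8% and lower in 13.4%).

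Apoe was called 3.53-fold higher in kidney Ly6c2 cells (edgeR adjusted p = 0.0285). That call rested on kidney library 2, and without spleen library 3 its adjusted p was 0.0519. Without kidney library 2 the value was -0.26 (adjusted p = 0.763), with library 3 at 469 CPM inside the spleen range of 312 to 868 CPM. The C1q chains stayed called without it, at 2.49 for C1qa, 2.76 for C1qb, and 1.95 for C1qc. Without cells that held a Camp, Ngp, or Ltf UMI the log2 difference was 5.82 for Cfb, 3.23 for C1qa, 3.52 for C1qb, 2.83 for C1qc, 3.25 for Ms4a7, and 1.69 for Apoe, all still called, and C3 at 1.19 (0.0508) and Trem2 at 0.16 (0.78) did not pass. In Ace cells, a lone kidney sum, taken to vary like the 3 spleen sums it was set against, Cfb (log2 5.43, edgeR adjusted p = 0.00219) and C1qb (1.70, 0.0466) were called higher, C1qa, C1qc, C3, and Apoe were not called, and Trem2 and Ms4a7 were not tested, where 18.7% of genes were called (higher in 12.4% and lower in 6.27%). On sums of at least 5 cells, 2 against 5, Cfb (5.86, edgeR adjusted p = 9.63e-06) and C1qb (1.47, 0.035) stayed called and Apoe was called lower (-1.20, 0.027), where 27.0% of genes were called.

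The other genes of both pathways were read from lists of 41 complement and 40 lipid and macrophage genes. In the Spic sum of spleen library 1 against Ly6c2 cells, 4 complement genes rose and 2 fell of 18 tested, where 9.45% of all genes were called (5.74% higher and 3.71% lower), with a list median of 0.46 on the log2 scale against -0.12 over all genes. C6, of the membrane attack complex, rose by 5.97, and the lectin Fcna by 5.37, while Itgam, a chain of complement receptor 3, fell by 2.30 on the log2 scale. Of 35 lipid genes 10 rose and 4 fell with a median of -0.55. Mertk and Axl, receptors for dying cells, rose by 7.44 and 5.22, and the nuclear receptor Pparg by 5.35, while Ms4a4c fell by 4.20. The 7 members tested had a median of 4.14. On the 5 Spic sums of at least 5 cells the median of the lipid list turned to 0.27, with 9 of 27 genes higher and 8 lower, and that of the complement list was 1.38, with 7 of 12 higher and 1 lower, where 40.7% of all genes were called.

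In spleen Ace against Ly6c2 cells 3 of 18 complement genes and 7 of 35 lipid genes rose, and 0 and 1 fell, where 5.38% of all genes were called higher and 2.21% lower, with list medians of 0.16 and 0.35 against 0.05 over all genes. Itgax, a chain of complement receptor 4, rose by 2.55, and the fatty acid genes Fabp4 and Cd36 rose by 5.97 and 4.33. Npc2, which exports cholesterol from lysosomes, fell by 0.78.

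In kidney Arg1 against Ly6c2 cells 2 of 12 complement genes rose and 0 fell, where 2.44% of all genes were called higher and 2.61% lower, with a list median of 0.24 against 0.00 over all genes. The C3a receptor gene C3ar1 rose by 1.27 and Lrp1, an Apoe receptor, by 0.56. Of 33 lipid genes 4 rose and 2 fell with a median of -0.02. The cholesterol exporter Abca1 rose by 1.56, the scavenger receptor Cd36 by 1.50, and Mertk by 1.24, while Ms4a4c and Ms4a6b, relatives of Ms4a7, fell by 0.99 and 0.69. The 8 members had a median of 1.62.

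In Ly6c2 cells of kidney against spleen 5 of 16 complement genes rose and 3 fell, where 21.8% of all genes were called higher and 13.4% lower, with a list median of 0.59 against 0.05 over all genes. C3ar1 rose by 5.92 and C4b, of the classical pathway, by 5.25, while Fcna, with no UMI in the kidney sums, and Cr2, the B cell receptor for C3 fragments, were called lower. Of 33 lipid genes 14 rose and 1 fell (median 0.64), with Cd36 at 4.23, the scavenger receptor Msr1 at 4.04, and Mertk at 3.31 among those that rose. In kidney Ace against Ly6c2 cells 2 of 12 complement genes and 5 of 33 lipid genes rose and 0 and 1 fell, where 2.99% of all genes were called, with Spp1 at 3.90, Cd9 at 3.49, and Npc2 at -1.15. In Ace cells of kidney against spleen 0 of 9 complement genes rose and 0 fell by edgeR, where 2 had an unadjusted p under 0.05 and DESeq2 called 0, and 6 of 29 lipid genes rose, among them Lpl at 4.03, and 2 fell, among them Fabp4, which had no UMI in the kidney sum, where 18.7% of all genes were called.

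C1q was not spread evenly over the cells of a class. After thinning to 1000 UMIs, 1332 of 6840 gated kidney cells (19.5%) held at least 3 UMIs of the 3 C1q genes together, 32.9% in library 2 and 10.98% in library 3. In library 2 such cells made up 16.4% of Ly6c2, 9.09% of Ace, 47.6% of Arg1, 50.0% of Spic, and 36.0% of unclassed cells. In library 3 they made up 4.38% of Ly6c2, 0 of 6 Ace, 19.7% of Arg1, and 19.1% of unclassed cells. No C1q UMI was seen in 86.4% of Ly6c2 cells and in 54.4% of Arg1 cells. The Arg1 value was 28.6% in library 2 and 72.1% in library 3, so that most Arg1 cells held C1q in the first and most held none at this depth in the second. In naive spleen 63 of 76 Spic cells (82.9%) held at least 3 C1q UMIs and 31.6% held at least 10. The shares were 6.96% in Ace, 4.92% in Flt3, 0.806% in Ly6c2, and 0.167% in Cd79a cells.

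**Figure D3:**
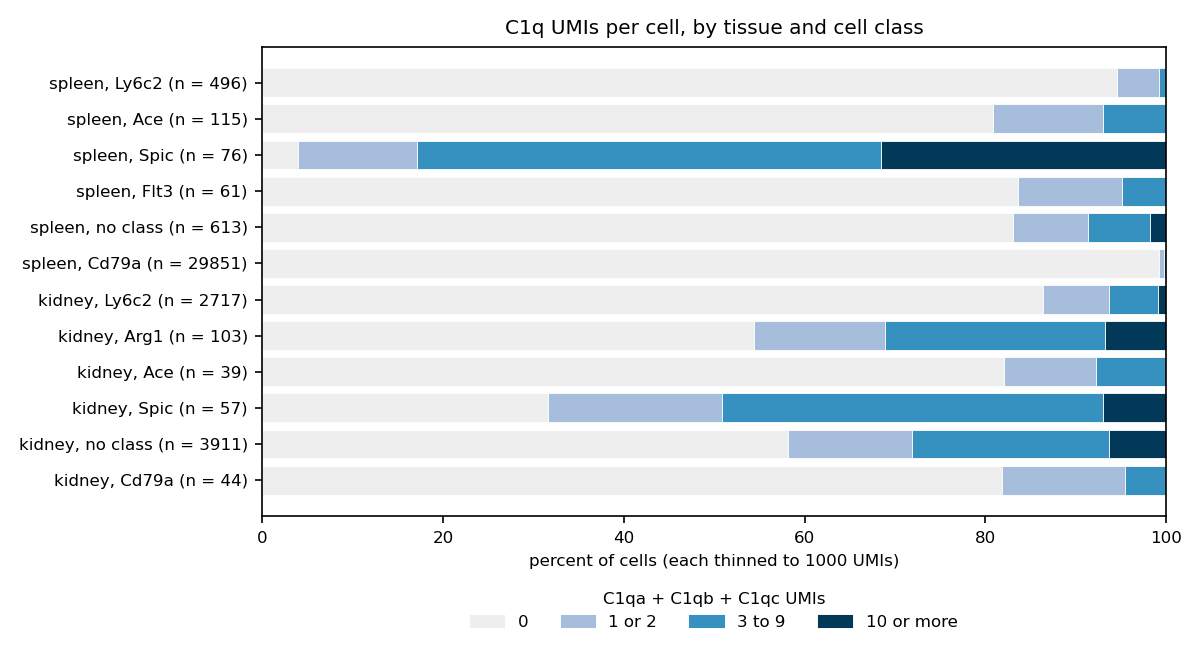
Percent of cells in each class, after thinning to 1000 UMIs, that held 0, 1 or 2, 3 to 9, or at least 10 UMIs of C1qa, C1qb, and C1qc together, in rejecting kidney and naive spleen. Spleen Spic cells are mostly in the upper bins (82.9% with at least 3), and kidney Arg1 cells, pooled over both libraries, are divided, with 54.4% at 0 and 31.1% with at least 3.

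The class genes therefore left out most of the kidney's C1q. Unclassed cells of the myeloid gate held 59.0% of all C1qa UMIs of the kidney matrix, 54.6% of Apoe, 54.7% of Ms4a7, and 50.2% of Trem2. A further 25.6% of C1qa, 25.8% of Apoe, 22.9% of Ms4a7, and 24.1% of Trem2 lay in 5064 kidney cells outside both the classes and the gate. Over both libraries the Ly6c2 class held 10.8% of C1qa, 37.1% of C3, and 45.3% of Cfb, but library 3 gave 2285 of its 2717 cells and the shares differed by library. It held 388 of 2897 Cfb UMIs in library 2, where unclassed cells held 1645, and 5337 of 9743 in library 3, where unclassed cells held 2798. Of C3 it held 468 of 3842 and 3824 of 7713 UMIs, and of C1qa 648 of 11483 and 1347 of 6967 UMIs. In spleen, the 85 Spic cells held 24.9% of the C1qa UMIs of 47060 cells, and Ly6c2 cells held 65.2% of C3 and 66.7% of Trem2, though in library 5 they held 11 of 67 C3 and 2 of 13 Trem2 UMIs. Cd79a cells held 75.8% of Ms4a7 at 3.87 to 6.39 CPM. The 15673 spleen cells outside both the classes and the gate held 27.0% of C1qa.

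The other 5 genes were then read in gated cells with at least 3 C1q UMIs (C1q-high) and with none (C1q-negative), all thinned to 1000 UMIs. The members of a matrix were divided by C1q alone, and no test was made. Apoe measured 7835 against 2359.5 CPM in kidney library 2 (3.32-fold), 1317 against 554 CPM in library 3 (2.38-fold), and 3528 against 651 CPM over the spleen libraries (5.42-fold). Ms4a7 measured 433 against 89.5 CPM and 280.4 against 61.8 CPM in kidney libraries 2 and 3, and 104 against 3.72 CPM in spleen. Both genes were higher in C1q-high cells in each kidney library, and Apoe in each spleen library. The spleen value of Ms4a7 comes from 13 and 4 UMIs, 9 of the 13 in library 1, and in libraries 3 and 4 C1q-high cells had none against 1 UMI each in C1q-negative cells. Trem2 measured 169 against 47.3 CPM and 115 against 39.5 CPM in the kidney libraries, higher in C1q-high cells, while in spleen the 125 C1q-high cells had no UMI, and their depth could not show a level below the 22.3 CPM of C1q-negative cells. C3 measured 452 against 293 CPM and 530.4 against 541 CPM in the kidney and 56.0 against 165 CPM in spleen, so its order changed between libraries. Cfb was the lower in C1q-high cells in both kidney libraries, at 268 against 329 CPM and 546 against 792 CPM. In spleen the pooled values were 72.0 against 6.52 CPM from 9 and 7 UMIs, 4 of the 9 in each of libraries 2 and 5, and library 3 had 0 against 4 UMIs, so no order is read there. Ly6c2 was the lower in both kidney libraries, at 139.9 against 467 CPM and 346 against 1384 CPM.

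**Figure D4:**
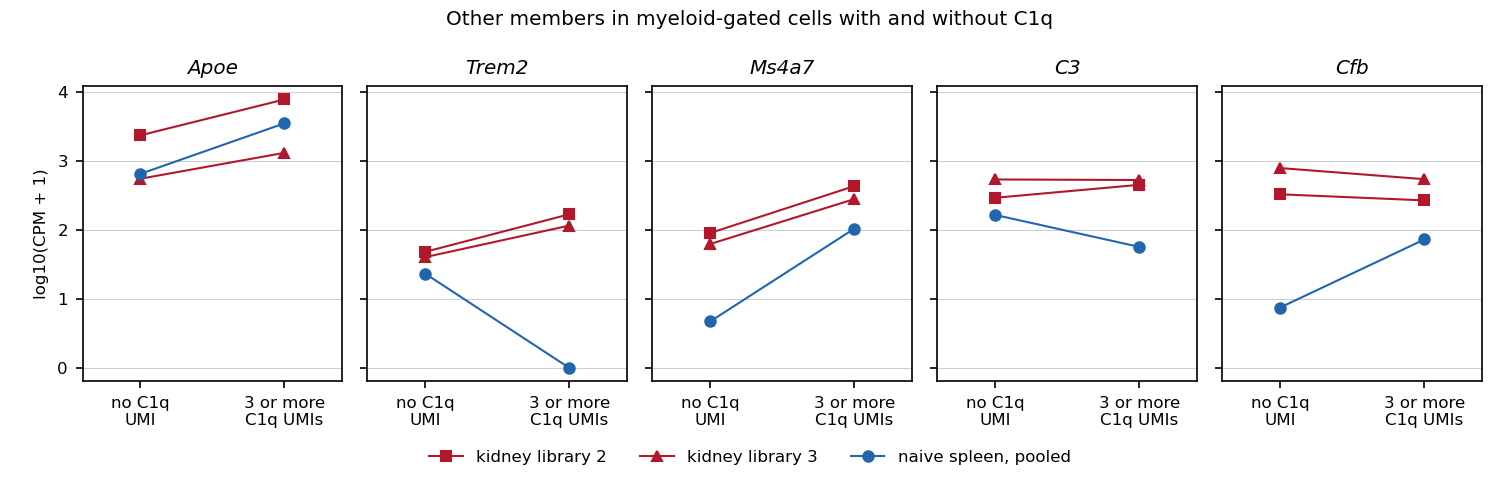
CPM of Apoe, Trem2, Ms4a7, C3, and Cfb, as log10 of CPM plus 1, in C1q-negative (left) and C1q-high (right) gated cells of kidney library 2, kidney library 3, and the pooled naive spleen libraries, with a line joining the values of the same cells' source. Lines for Apoe and Ms4a7 rise in both kidney libraries, by 3.32 and 2.38-fold for Apoe, and lines for Cfb fall in both, to 0.816 and 0.689 of the C1q-negative level, while the pooled spleen line for Cfb, from 9 and 7 UMIs, goes from 6.52 to 72.0 CPM.

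As a description of likeness, log2 of CPM plus 1 was correlated over the 21 class sums of both tissues for the 8318 genes whose mean reached 10 CPM. The sums share libraries and depth, and no test was made. B cell (Cd79a) sums of both tissues are among them, and spleen Spic cells entered by library 1 only. The correlations thus also hold differences between B cells and myeloid cells and between tissues. Among the genes most like C1qa were C1qb (0.992), C1qc (0.992), Gpr65 (0.937), and Sash1 (0.933), the numbers being Pearson correlations. Those most like Apoe were C1qc (0.914), Usp9x (0.908), C1qa (0.888), Nckap1l (0.879), and Fcho2 (0.878). C3 was followed most closely by Lgals3 (0.981), Emilin2 (0.979), Tgfbi (0.978), Itgam (0.970), and Lamp2 (0.968), and Trem2 by Fxyd5 (0.956), Tiam1 (0.947), Ptpro (0.945), Sema4a (0.943), and Emilin2 (0.934). C1qa and Apoe were thus each near other C1q chains, and C3 and Trem2 shared Emilin2, an extracellular matrix gene, among their nearest 5.

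The same 8 genes were counted in the 9 matrices of cells that the authors had called CD8+ T cells, which should not transcribe C1q. A level there is described as RNA carried with the cell, and the way it came there was not tested. All 2184 kidney and 4681 naive spleen CD8+ cells of these matrices are also in the CD45+ matrices. In rejecting kidneys C1qa measured 31.1 and 9.73 CPM, which was 3.02% and 2.31% of the level in the other CD45+ cells of libraries 2 and 3. For C3 these shares were 2.68% and 1.67%, for Cfb 2.10% and 1.43%, and for Apoe 2.81% and 1.78%. The 8 genes ran from 2.10% to 7.01% in library 2, the highest being Trem2 from 14 UMIs, and from 1.43% to 3.16% in library 3. In naive spleen libraries they ran from 0 to 25.2%, the highest being Cfb in library 1 from 1 UMI. In sums over such cells, fewer carrying cells and less RNA in each cannot be told apart.

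A C1q UMI was seen in 10.3% of 16467 CD8+ cells of accepted kidneys at 1 week, 9.38% of 22206 at 3 weeks, and 11.4% of 2184 in rejecting kidneys. In naive spleen it was seen in 0.598% of 4681, and in accepted recipients' spleens in 0.336% at 1 week and 0.458% at 3 weeks, all at full depth. The 1% of cells with the most C1q UMIs held 18.5%, 21.4%, and 18.6% of them in the 3 kidney groups, so the UMIs were spread over many cells. After thinning to 1000 UMIs, 1.68% (1.49 to 1.88) of cells of accepted kidneys at 1 week, 1.99% (1.82 to 2.19) at 3 weeks, and 2.29% (1.70 to 3.01) of rejecting kidneys had a C1qa UMI. The share was 0.0641% (0.0132 to 0.187) in naive spleen, and the median depths before thinning were 2558, 2171, 1964, and 4296 UMIs. The chains split into 35.1% C1qa, 48.9% C1qb, and 15.97% C1qc at 1 week and 42.5% C1qa, 37.3% C1qb, and 20.1% C1qc at 3 weeks in accepted kidneys. In rejecting kidneys they split into 37.3% C1qa, 36.2% C1qb, and 26.5% C1qc, where all CD45+ cells of those grafts gave 40.7% C1qa, 33.8% C1qb, and 25.5% C1qc. Library 2 gave 211 of the 279 UMIs in rejecting kidneys, with C1qc at 29.4% there and at 17.6% in library 3, and C1qb (35.5%) and C1qa (35.1%) were in the other order in library 2.

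**Figure D5:**
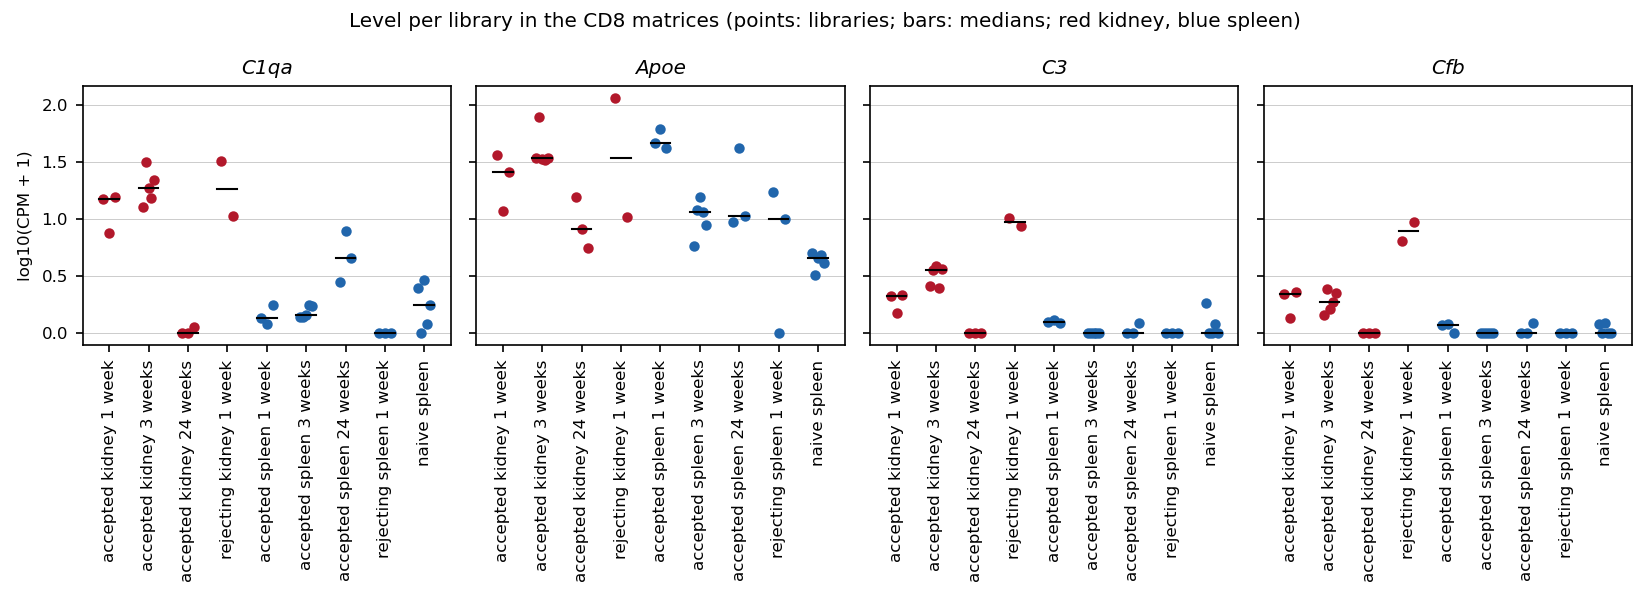
Level of C1qa, Apoe, C3, and Cfb as log10 of CPM plus 1 in the libraries of the 9 CD8+ matrices, by tissue and time, with 1 point for each library (red for kidney, blue for spleen labels) and a bar at the median. Kidney libraries of 1 and 3 weeks sit above the spleen libraries of those weeks for C1qa, the libraries labelled 24 weeks have the opposite order, and C3 and Cfb are highest in rejecting kidney.

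Between CD8+ libraries of accepted kidney and accepted recipients' spleen, C1qa measured 13.97, 6.52, and 14.7 CPM against 0.349, 0.212, and 0.752 CPM at 1 week. At 3 weeks it measured 11.9, 31.0, 17.8, 14.4, and 21.0 CPM against 0.398, 0.398, 0.432, 0.785, and 0.721 CPM. The tissues did not overlap at either time. The log2 difference was 4.62 (edgeR adjusted p = 6.14e-09) at 1 week, where 52.4% of 12503 genes were called, and 5.13 (edgeR adjusted p = 4.42e-11) at 3 weeks, where 60.8% were called. C1qb, C1qc, C3, and Cfb were also higher at 1 week, 5 of the 7 genes tested. At 3 weeks C1qb, C1qc, Apoe, and Ms4a7 were also called higher. C3 and Cfb had no UMI in the spleen libraries of 3 weeks. They passed the filter on low counts through other groups, so neither a call nor a size of their difference is read at 3 weeks. In cells with a CD8 UMI and no UMI of Lyz2, Csf1r, Cd68, Cst3, or Cd79a, C3 at 1 week was no longer called (1.34, edgeR adjusted p = 0.197). Of all genes 27.2% were called higher at 1 week and 41.6% at 3 weeks, and 25.2% and 19.2% lower.

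Apoe did not follow C1q in the 1-week sums of this comparison. At 3 weeks it was higher in kidney (log2 2.11, edgeR adjusted p = 8.74e-05), where 60.8% of genes were called. At 1 week accepted recipients' spleens held 45.3, 60.4, and 41.0 CPM and accepted kidneys 35.6, 10.7, and 25.2 CPM. The spleens were the higher group, and the difference did not pass (log2 -1.03, edgeR adjusted p = 0.0524). With same-numbered libraries as a block, chosen after seeing the data, Apoe was called lower in kidney (-1.08, edgeR adjusted p = 0.00299). The labels do not tie these numbers to mice. B cell genes summed 871, 1068, and 545 CPM over 5 genes in these spleen libraries against 131 to 319.5 CPM in spleens of 3 weeks, where Apoe measured 4.78, 10.9, 14.7, 10.5, and 7.93 CPM. In cells with a CD8 UMI and no UMI of Lyz2, Csf1r, Cd68, Cst3, or Cd79a the 1-week difference turned to 3.34 (edgeR adjusted p = 2.57e-05). That choice takes out cells with myeloid UMIs, with B cell UMIs, and without a CD8 UMI together. The part of B cell RNA in the Apoe level was not tested.

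At 24 weeks the order was reversed. Libraries labelled kidney held 0, 0, and 0.130 CPM of C1qa and libraries labelled spleen held 1.79, 6.95, and 3.53 CPM, with no overlap (log2 -5.82, edgeR adjusted p = 8.78e-05). The difference of C1qa rests on 1 UMI against 49, a ratio of 74.1 with an exact 95% interval of 12.7 to 2984 for counting error. C1qb, C1qc, and Ms4a7 were lower with it, 4 of 7 genes tested, where 46.1% of genes were called (higher in 14.4% and lower in 31.6%). Without spleen-labelled library 2 neither C1qc nor Ms4a7 was called (edgeR adjusted p = 0.228 and 0.111). C1qc also lost its call without kidney-labelled library 1 or 2, and Ms4a7 without kidney-labelled library 3. In cells with a CD8 UMI and no myeloid or B cell UMI C1qc was not called either (-2.90, edgeR adjusted p = 0.0635). Proximal tubule genes (6 genes) summed 0 CPM in all libraries labelled kidney and 1.39 to 2.59 CPM in those labelled spleen at 24 weeks. At 1 and 3 weeks they summed 0.142 to 3.39 CPM in kidney and 0 to 0.262 CPM in spleen libraries. The tubule genes thus go against the 24-week labels, and no direction between tissues is drawn at that time.

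Rejecting kidneys were set against accepted kidneys at 1 week in CD8+ libraries, 2 against 3. C3 measured 9.26 and 7.79 CPM in rejecting and 1.12, 0.496, and 1.16 CPM in accepted grafts, and Cfb 5.47 and 8.44 CPM against 1.195, 0.354, and 1.31 CPM. Both rejecting libraries lay above all accepted ones for both genes. C3 was 8.78-fold higher (edgeR adjusted p = 6.08e-07) and Cfb 7.01-fold higher (edgeR adjusted p = 1.24e-05). C1qa, at 31.1 and 9.73 CPM against 13.97, 6.52, and 14.7 CPM, overlapped and did not pass (log2 0.74, edgeR adjusted p = 0.114), nor did C1qb (0.24). C1qc (1.37), Ms4a7 (2.11), and Apoe (1.33) were called higher, 5 of 7 in all, where 67.8% of genes were called and 54.0% were called higher. Without rejecting library 2 the values were -0.50 for C1qc, -1.34 for Apoe, and 1.45 for Ms4a7 (adjusted p = 0.0938). Without accepted library 2 neither C1qc (adjusted p = 0.0552) nor Apoe (0.12) was called. With TMM factors the calls of C1qc and Apoe were lost, and the median gene lay 0.68 higher in rejecting kidneys on plain totals. The strains of donor and recipient were exchanged together with the outcome, so strain and outcome cannot be told apart.

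From 1 to 3 weeks in accepted kidneys, C3 went from 1.12, 0.496, and 1.16 to 1.61, 2.56, 2.91, 1.49, and 2.68 CPM and was called higher (log2 1.23, edgeR adjusted p = 0.00305). C1qa (0.70, 0.034) and Ms4a7 (0.88, 0.0342) were called higher too, 3 of 7 tested, where 70.7% of genes were called (higher in 49.9% and lower in 20.8%) and the median gene was 0.39 higher. Apoe (0.82), C1qb (0.04), C1qc (0.72), and Cfb (-0.10) did not pass. With TMM factors C3 alone stayed called, and DESeq2 did not call it (adjusted p = 0.0752). The call of C1qa was lost without 1-week library 2 (0.235), 3-week library 2 (0.157), or 3-week library 5 (0.061), and that of Ms4a7 without 1-week library 2 or 3 or 3-week library 2 (adjusted p from 0.0898 to 0.135). This comparison shares its 1-week libraries with the preceding one and its 3-week libraries with that of kidney and spleen. Trem2 passed the filter on low counts in none of the CD8+ comparisons.

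Of the 41 complement and 40 lipid genes, 8 and 13 were higher and 3 and 6 lower in CD8+ cells of rejecting than of accepted kidneys, of 16 and 28 tested, which is near the 67.8% of all genes called there. From 1 to 3 weeks in accepted kidneys 7 and 12 were higher and 6 and 8 lower, where 70.7% of all genes were called. In accepted kidney against spleen 4 and 9 were higher and 5 and 11 lower at 1 week, and 4 and 14 higher and 5 and 10 lower at 3 weeks, where 52.4% and 60.8% of all genes were called. Between the libraries labelled kidney and spleen at 24 weeks 3 and 9 were higher and 2 and 10 lower, where 46.1% of all genes were called.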

How the data were processed

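Droplet 3′ scRNA-seq was made from sorted CD45+ cells. The authors mapped reads with Cell Ranger to mm10, per the labels' processing notes, named cell types from clusters by canonical markers, and deposited raw UMI counts without normalization. The study filtered cells by UMIs, mitochondrial content, and genes expressed. Limits of these filters, whether the deposited matrices had passed them, and the version of Cell Ranger are not given in the sources used here. The 2 CD45+ matrices of rejecting kidney and naive spleen and the 9 CD8+ matrices were used, and CD45+ data of accepted mice were not used here. No doublet caller was run, and the T and NK gate removes only mixed cells with such a UMI. Conditions came from the sample labels and libraries from the barcode tags. Each tag was taken as 1 mouse, since the study's methods call each mouse a separate sample. The labels do not tie tags to mice. Where libraries were compared without a block, p-values measure the spread between libraries, which may be technical. With the library as a block they measure the spread left between class sums. The edgeR fit moderates the spread of each gene toward that of all genes. With 1 residual degree of freedom, as in the kidney classes, p-values rest mostly on that moderation.

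UMIs were summed per library and class and scaled to CPM by plain totals (Python 3.11.15, numpy 2.4.6, pandas 2.3.3). Sums of at least 20 cells were compared by edgeR 4.0.16 (R 4.3.3) with filterByExpr, the quasi-likelihood test, and Benjamini-Hochberg adjustment over all genes tested at a threshold of 0.05. An SE given with an edgeR value is the log2 difference divided by the square root of its F statistic. The library was a block within a tissue, since classes of 1 library come from the same mouse. The CD8+ libraries entered a common fit of 32 sums. DESeq2 1.42.0, TMM factors, no filter, other class limits, no block, and leaving out libraries were alternatives. Sums of at least 5 cells, Ly6c2 cells without precursor genes, and a block of kidney and spleen libraries with the same number were added after seeing the data. Intervals are exact Clopper-Pearson at 95% (scipy 1.17.1) for counting error. The fits were tested on simulated counts with the same spread for every gene and no difference between libraries but depth, unlike these data. Of 100 genes changed 4-fold they recovered 17 for spleen Spic and 59 for spleen Ace cells (9878 genes). They recovered 68 for kidney Arg1 and 21 for kidney Ace cells (5782 genes), and 90 for Ly6c2 cells between tissues (9510 genes). Of 100 genes changed 2-fold they recovered 2, 3, 13, 0, and 37 in this order, so most changes of that size were missed. The genes named are the 8 members, up to 3 genes of each pathway list with the largest rise and fall past the threshold in a comparison, and the 5 most correlated with C1qa, C3, Apoe, or Trem2, of which 1 is not reported here. The members and all lists were chosen with earlier results of these data known. Gene spans are from GENCODE on GRCm38, the assembly that mm10 names, and promoters from RefSeq.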

Additional observations from a re-analysis of the deposited data

Results flagged for a closer look

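Of 47 groups of a gene in a class or matrix, 7 held a library that stood far from the others. The limit used flags about 1 in 20 groups of independent, normally distributed values. These groups share libraries and some rest on few UMIs, so no excess over chance is read. In naive spleen library 1 C1qa measured 47.7 CPM over all cells against 9.88 to 20.4 CPM in the other 4 libraries, and C1qb 42.2 CPM against 6.68 to 16.4 CPM. That library also held 41 of the 85 Spic cells. In its Flt3 class Apoe measured 489.9 CPM against 50.6 to 177 CPM, from 8 cells. In spleen library 5 Trem2 of the Ace class measured 66.3 CPM against 33.4 to 38.5 CPM, from 4 UMIs. In the CD8+ matrix of accepted kidneys at 3 weeks library 2 held 15.99 CPM of C1qc against 5.80 to 8.28, 78.6 CPM of Apoe against 32.2 to 33.3, and 1.54 CPM of Trem2 against 0.198 to 0.357.

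In every library of the CD8+ matrices the 24-week labels gave the opposite order of tissues to 1 and 3 weeks for the C1q genes. The log2 difference of the libraries labelled kidney minus those labelled spleen at 24 weeks was -5.82 for C1qa, -6.06 for C1qb, and -3.07 for C1qc, from 1, 1, and 3 UMIs in the libraries labelled kidney. At 1 week C1qa differed by 4.62 and at 3 weeks by 5.13. The difference between the times was not tested, and the proximal tubule genes go against the 24-week labels.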

How the results depend on the processing

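Of the values of the 8 genes under an alternative, 858 kept their direction and their side of the threshold, 65 lost the call, 33 gained one, and 30 changed sign. Of the counts of called genes 128 stayed within 1.5 times and 19 did not. The causes were not tested. Values that changed sign are given as log2 differences. With the 6 class genes alone, without the gate on Fcer1g and on T and NK genes, the spleen Spic comparison called 2325 genes in place of 933, the Ace comparison 3030 in place of 749, and the Ly6c2 comparison of tissues 7014 in place of 3344. In the spleen Ace comparison Trem2 then turned to 2.12 and C3 to 1.03, and in the kidney Ace comparison Trem2 to -0.13. The spleen Flt3 comparison without that gate had 2 Flt3 sums of at least 20 cells and called 1737 of 11845 genes (14.7%), with Apoe at 1.04, against 797 of 3253 (24.5%) on 5 sums of at least 5 cells with the gate, so gate and cell minimum both differ. Classes from at least 3 UMIs called 373 genes in spleen Ace cells, with Trem2 at 0.14. Classes from at least 1 UMI called 367 genes in kidney Ace cells with Trem2 at -1.03, and 1145 in Ace cells between tissues with C1qc at -0.23, and Trem2 turned to 0.35 in spleen Ace cells. For kidney Flt3 cells they called 525 genes on 1 sum of 28 cells, against 321 on 1 sum of 9 cells from at least 2 UMIs, so class limit and cell minimum both differ. DESeq2 called 15 genes in kidney Arg1 cells, 13 in kidney Ace cells, and 223 in Ace cells between tissues.

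Classes of a library were taken to come from the same mouse, so libraries pair the sums. Without the replicate block 8 genes were called in kidney Arg1 cells in place of 292, and 17 in kidney Ace cells in place of 173, where C1qb turned to 0.27. In spleen it gave 1049 calls for Spic and 732 for Ace cells, C3 lost its call in Spic cells, and the C1q genes lost theirs in Ace cells. Leaving out each library gave 335 to 856 calls for spleen Ace cells (335, 411, and 424 without libraries 3, 4, and 1), 515 to 730 for spleen Flt3 cells, and 1466 to 3625 for Ly6c2 cells between tissues, with 1791 without kidney library 2 and 1466 without kidney library 3. There Apoe ranged over -0.26 to 2.64, and C1qc of Ace cells between tissues over -0.23 to 0.91. For the Spic sum of library 1 leaving out spleen libraries 2 to 5 in turn gave 713 to 1054 calls, and without library 1 no Spic sum of at least 20 cells is left. No such fit could be made for the kidney classes, where no residual degree of freedom is left.

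Kidney and spleen CD8+ libraries of accepting mice carry the same numbers, but the labels do not tie a number to a mouse. Same-numbered libraries deviated together with correlations across 7517 genes of 0.0823 to 0.302 at 1 week, 0.0476 to 0.466 at 3 weeks, and 0.0416 to 0.21 at 24 weeks. Those of different numbers gave -0.276 to 0.161, -0.274 to 0.131, and -0.152 to 0.0958 at these times. Deviations were taken from the group mean, so these values depend on each other. Not every library correlated best with its own number. A replicate block of these numbers, chosen after seeing the data, gave 6981, 7842, and 5905 calls at 1, 3, and 24 weeks in place of 6550, 7598, and 5758. Apoe at 1 week, lower in kidney in 3 of 3 same-numbered pairs, was then called lower (log2 -1.08, edgeR adjusted p = 0.00299), and no other of the 8 genes changed its call.

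In the CD8+ matrices from 1 to 3 weeks C1qb turned to -0.32 with TMM factors, -0.27 with DESeq2, and -0.25 in cells with a CD8 UMI and no myeloid or B cell UMI, with -0.25 to 0.28 for C1qb and -0.44 to 0.26 for Cfb as libraries were left out. For rejecting against accepted kidney C1qb turned to -0.46, -0.30, and -0.27 in the same order, and C1qa to -0.16 in such cells. Leaving out libraries gave -0.28 to 1.39 for C1qa, -0.95 to 0.95 for C1qb, -0.50 to 2.23 for C1qc, and -1.34 to 2.27 for Apoe, each lowest without rejecting library 2. Apoe of kidney against spleen at 1 week turned to 3.34 in such cells. TMM factors moved the numbers of higher and lower calls from 6237 and 2599 to 4077 and 4191 for 3 weeks against 1 week, from 6756 and 1727 to 3825 and 4002 for rejecting against accepted kidney, from 5200 and 2398 to 3658 and 3457 for kidney against spleen at 3 weeks, from 1803 and 3955 to 2703 and 2863 at 24 weeks, and from 531 and 218 to 395 and 393 for spleen Ace cells. By edgeR single libraries also decided C3 of Ly6c2 cells between tissues (called without spleen library 1, adjusted p = 0.0437), C3 of spleen Ace cells (called without library 5, 0.0289), C1qa and Apoe of Ace cells between tissues (called without spleen library 1, 0.000554, and 3, 0.0112), C1qa of rejecting against accepted kidney (called without rejecting library 3, 0.00829), Apoe and C1qc from 1 to 3 weeks (called without 1-week library 1, 0.0267 and 0.0428, C1qc also without 3-week library 1, 0.0356), and, for kidney against spleen at 1 week, Apoe (called without kidney library 1, 0.0214) and C3 (lost without kidney library 3, 0.0518). Depth limits the small classes, where 1 UMI in the Spic class of a spleen library is worth more CPM than the whole Trem2 level of Cd79a cells.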

Other observations

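Cells of naive spleen that passed the myeloid gate but fell in no class held 357, 180.2, 331, 192, and 135 CPM of C1qa and 999.8, 967, 901, 661, and 1327 CPM of Apoe in libraries 1 to 5. CD8+ cells of naive spleen held 4.01, 2.23, 3.59, 3.84, and 3.14 CPM of Apoe, which was 1.41 to 2.04% of the level in the other cells of the same libraries. CD8+ cells of rejecting recipients' spleens held 16.4, 0, and 9.07 CPM of Apoe and no C1qa UMI in 726 cells. At 24 weeks the libraries labelled kidney held 14.8, 7.23, and 4.55 CPM of Apoe and those labelled spleen 8.55, 41.2, and 9.66 CPM, which overlapped. The log2 difference was -1.14 (edgeR adjusted p = 0.133). In cells with a CD8 UMI and no myeloid or B cell UMI it was -3.64 (edgeR adjusted p = 0.000586).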
